A study of Bos taurus with 170 samples.

Results

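The 6 Day 2 bovine embryos of the study were compared by the time that had passed between the third cleavage, the division that takes an embryo from 4 towards 8 cells, and collection. Both times come from the time-lapse record of the study, in which each embryo was imaged every few minutes. Embryos collected less than 2 h after the division (Day2-E2, Day2-E5 and Day2-E6) formed one side and those collected later than 2 h after it (Day2-E1, Day2-E3 and Day2-E4) the other. The interval was 0 min in Day2-E6, 5 min in Day2-E5, 70 min in Day2-E2, 165 min in Day2-E1, 170 min in Day2-E4 and 255 min in Day2-E3. All were labelled 8-cell stage embryos, from oocytes of slaughterhouse ovaries matured and fertilised in vitro, with no treatment on either side. The study counted 8 cells in Day2-E1, Day2-E4 and Day2-E5, 9 in Day2-E2 and Day2-E3, and 6 in Day2-E6. The study had picked them because their cleavage times lay close to those with good blastocyst rates, so slow or arrested embryos are not represented. Blastomeres were separated after removal of the zona pellucida and sequenced one by one by SCRB-Seq, a 3′ method in which every captured mRNA is tagged with a random molecular identifier (UMI) and its PCR copies are collapsed to 1 count. Cells with 2000 or more UMI were kept: 43 of the 47 Day 2 cells in the table, out of 161 such cells in all 14 embryos, with 8 Day 3 embryos making up the rest.

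A cattle embryo lives at first on mRNA and protein laid down in the oocyte. Its own genome is switched on in earnest around the 8-cell stage, while stored maternal mRNA is removed. The third cleavage opens the cell cycle in which that switch takes place, so the comparison asks whether the mRNA of an embryo differed with the hours since that division. The embryos over 2 h had also divided earlier. Day2-E1, Day2-E4 and Day2-E3 did so at 41.25, 42.17 and 39.75 h after fertilisation, and Day2-E6, Day2-E5 and Day2-E2 at 45.07, 45.42 and 42.83 h. Collection was at 44 to 45.5 h throughout, so hours since the division and early or late division cannot be told apart. The cycles of the early embryo pass quickly from mitosis into DNA replication, and an embryo collected within minutes of the division holds cells that have just divided or are still dividing.

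The UMI of the cells of an embryo were summed and the embryo was taken as the replicate. The side over 2 h held 20 cells, with 6 from Day2-E1, 7 from Day2-E4 and 7 from Day2-E3. The side under 2 h held 23 cells, with 6 from Day2-E6, 8 from Day2-E5 and 9 from Day2-E2. All 4 Day 2 cells left out for low counts, which held 50 to 1483 UMI on genes, belonged to embryos over 2 h. Summed UMI on genes ranged from 438899 to 920192 per embryo, and 1 UMI stood for 1.09 to 2.28 CPM (UMI per 1000000 UMI on genes of that embryo). Deep cells weigh more in these sums. In Day2-E1 the deepest cell gave 221116 of 467902 UMI and the shallowest 2988, and in Day2-E2 the deepest gave 357287 of 920192. The sample titles end in p2 for Day2-E5 and Day2-E6, the embryos at 5 and 0 min, and in p3 for the other 4. These marks are called plate 2 and plate 3 below, although the titles do not say what they stand for. Plate in this sense and collection within minutes of the division cannot be told apart. The 47 Day 2 cells carried 47 different cell barcodes, and each of these barcodes was used again for a Day 3 cell. The labels do not say whether embryos came from separate fertilisation runs, so the p-values measure the spread between these embryos.

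The blastomeres carried the mRNA of the oocyte and early embryo on both sides. Of 10 markers of the oocyte and embryo, 9 were in the table and all 9 had UMI in these embryos, with a summed level of 7464 to 7762 CPM over 2 h and 7670 to 8827 CPM under 2 h. DPPA3, a maternal factor that protects the maternal genome from demethylation in the zygote, ranged from 2347 to 3374 CPM, and GDF9, the oocyte growth factor, from 864 to 1206 CPM. Of 14 markers of cumulus and granulosa cells, 12 were in the table, none of them was at 0 over the 6 embryos, and their summed level was 519 to 632 CPM over 2 h and 529 to 631 CPM under 2 h. Most of that was HAS2 (207 to 310 CPM) and STAR (189 to 312 CPM). VCAN, PTGS2 and INHBA had 93, 81 and 54 UMI, while the granulosa markers FOXL2 and AMH had 1 UMI each. SERPINE2, in the cumulus and granulosa list used below but not among these markers, had 584 UMI. Of 10 markers of stroma, blood and immune cells, 9 were in the table, and COL3A1, DCN, CD68 and HBB were at 0. Their summed level was 59.4 to 137 CPM over 2 h and 88.9 to 128 CPM under 2 h, and VWF, an endothelial gene, carried most of it (54.8 to 133 CPM, 385 UMI), followed by COL1A2 with 24 UMI. Of 6 sperm markers, 3 were in the table, with ODF1 at 0, and together they reached at most 5.12 CPM in an embryo. ODF2, in the sperm list used below but not among these 6, was at 31.9 to 75.2 CPM (254 UMI).

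The amount of mRNA captured per cell did not separate the sides. The median UMI per cell was 57905 in Day2-E6, 88588 in Day2-E5 and 74212 in Day2-E2, against 53645 in Day2-E1, 70147 in Day2-E4 and 113825 in Day2-E3. The lowest and the highest median both belonged to embryos over 2 h. The means were 79206 ± 31096 (SD, n = 3) over 2 h and 73568 ± 15352 (SD, n = 3) under 2 h (p = 0.9, two-sided exact permutation test over embryos, which with 3 against 3 cannot give less than 0.1). Spike-in RNA (ERCC) had been added in equal amount to each well. The median UMI on genes per ERCC UMI was 71.4, 69.8 and 69.5 at 0, 5 and 70 min and 67.4, 69.6 and 75.8 at 165, 170 and 255 min (p = 0.9, exact permutation test). ERCC UMI nonetheless ran from 31 to 5381 per cell and followed the UMI on genes (Spearman's rho = 0.987 over 43 cells of 6 embryos, a description, since both counts come from the same libraries).

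**Figure D1:**
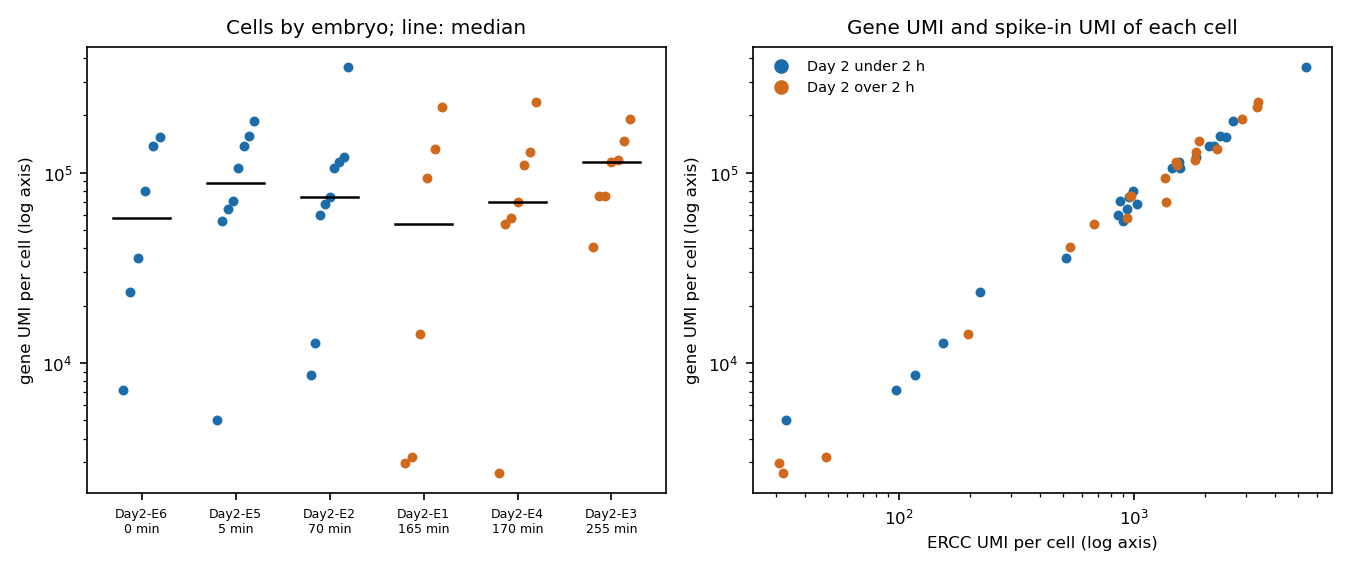
UMI on genes of each of the 43 cells by embryo, in order of minutes since the third cleavage (left, log axis, black lines are embryo medians), and UMI on genes against ERCC UMI for the same cells (right, both axes log). Embryo medians run from 53645 to 113825 with both ends among the embryos over 2 h, and cells of both sides lie on 1 line in the right panel.

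At equal depth the number of genes per cell overlapped between the sides. Thinned to 10000 UMI, a cell held a mean of 3321, 3374 and 3396 genes with a UMI in the embryos at 0, 5 and 70 min and 3340, 3278 and 3417 in those at 165, 170 and 255 min. The side means were 3345 ± 69.6 over 2 h and 3364 ± 38.7 under 2 h (SD, n = 3 each, p = 0.7, exact permutation test). Thinning left out 3 shallower cells on each side. The likeness of cells within an embryo was compared next. The median Spearman's rho between cells of 1 embryo over the 5907 genes tested below was 0.519, 0.532 and 0.524 at 0, 5 and 70 min and 0.529, 0.539 and 0.533 at 165, 170 and 255 min. The ranges overlapped, and the side means, 0.534 ± 0.00514 over 2 h and 0.525 ± 0.00694 under 2 h, were not separated (SD, n = 3 each, p = 0.2, exact permutation test).

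Pairs of embryos of the same side and of different sides covered the same range of likeness. With every embryo thinned to 438899 UMI, the median Spearman's rho over the 5907 genes was 0.941 for the 6 pairs within a side (0.935 to 0.948) and 0.942 for the 9 pairs across sides (0.934 to 0.955). The pair most alike was Day2-E2 at 70 min with Day2-E3 at 255 min. Day2-E6, collected at the time of the division, was the least like the others, with a median of 0.940 over its 5 pairs. These values describe pairs that share embryos and are given without a test.

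No gene passed the test between the sides. Of 5907 genes with enough UMI, 0 reached an adjusted p under 0.05 by the quasi-likelihood test of edgeR (Benjamini-Hochberg adjustment over all genes tested), which is 0% of genes called, and the smallest adjusted p was 0.9998. At an unadjusted p under 0.05 there were 180 genes, or 3.05% of those tested, of which 79 (1.34%) were higher and 101 (1.71%) lower over 2 h. DESeq2's Wald test on the same counts gave 0 genes at the adjusted and 80 at the unadjusted threshold. In 190 genes (3.22%) all 3 embryos over 2 h lay above the 3 under 2 h, and in 260 (4.4%) they lay below. With sides drawn at random, a gene would separate fully in 1 direction or the other with a probability of 0.1. With hours since the third cleavage as a number in place of the side, 0 genes were called and 168 had an unadjusted p under 0.05. Among the 4 embryos of plate 3, Day2-E2 at 70 min stood alone against the 3 over 2 h, so no count of genes is given there.

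The intervals show how large a change could have been missed. Standard errors and intervals were computed apart from edgeR's p-values, with a lower limit on the variance. An interval can therefore hold 0 where the unadjusted p is under 0.05. Over all genes tested, the log2 fold change had a median of 0.0042 and quartiles of -0.15 and 0.15, and the median standard error was 0.26. For 4563 genes (77.2%) the 95% interval lay within 1 log2 unit of 0, that is, a change of 2-fold or more in either direction was outside it. Among the 2353 genes with a mean of 100 CPM or more this held for 2340. For genes near the low end the intervals were wider, and smaller or low-level changes were not detectable with 3 embryos a side.

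**Figure D2:**
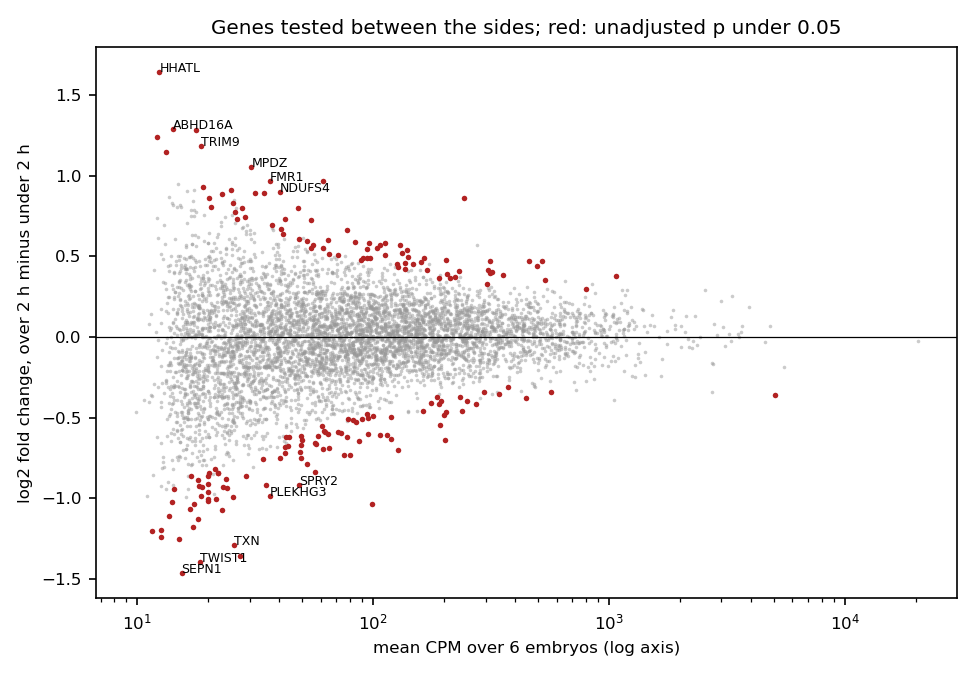
Log2 fold change (over 2 h minus under 2 h) against mean CPM over the 6 embryos (log axis) for the 5907 genes tested, with the 180 genes at an unadjusted p under 0.05 in red and named genes labelled. Large fold changes sit at low CPM, and 0 genes passed the adjusted threshold.

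Genes of embryonic genome activation were at a low level on both sides. The study took its activation genes from earlier work on pooled embryos and kept those detected in its own cells. The list is therefore not fully independent of these cells. Of its 20 genes, 14 had a UMI in the Day 2 embryos, and 1 had enough for the test. Their summed level was 116 CPM at 0 min, 138 at 5 min and 98.9 at 70 min, and 165, 88.3 and 111 CPM at 165, 170 and 255 min. The embryo with the most and the embryo with the least were both over 2 h and 5 min apart in interval. The side means were 121 ± 39.2 and 118 ± 19.7 CPM over and under 2 h (SD, n = 3), while the 8 Day 3 embryos ranged from 130 to 2132 CPM with a median of 937.

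DDX3Y, a Y-linked RNA helicase, made up most of that sum, at 86.6, 101 and 59.8 CPM under 2 h and 126, 67.0 and 76.5 CPM over 2 h, in order of interval. Its log2 fold change was 0.12 (standard error 0.26, 95% interval -0.43 to 0.66). It has a close X-linked copy, DDX3X, and counts of short 3′ reads may be shared between them. DDX3Y had UMI in 18 of 20 cells over 2 h and 19 of 23 cells under 2 h, and its Day 3 range was 61.6 to 363 CPM. Which copy these counts came from was not tested. The other 19 genes summed to 29.6, 37.1 and 39.1 CPM at 0, 5 and 70 min and to 38.5, 21.3 and 34.3 CPM at 165, 170 and 255 min. They had 78 UMI under 2 h and 58 over 2 h in all, and on Day 3 they ran from 68.3 to 1769 CPM. FOLR1, a folate receptor, lay at 11.39, 16.64 and 12.0 CPM under 2 h and 10.69, 10.66 and 17.2 CPM over 2 h, against a Day 3 median of 296 CPM. OVOL2, an epithelial transcription factor, had 20 UMI in all, and LOC508834 had 10.

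**Figure D3:**
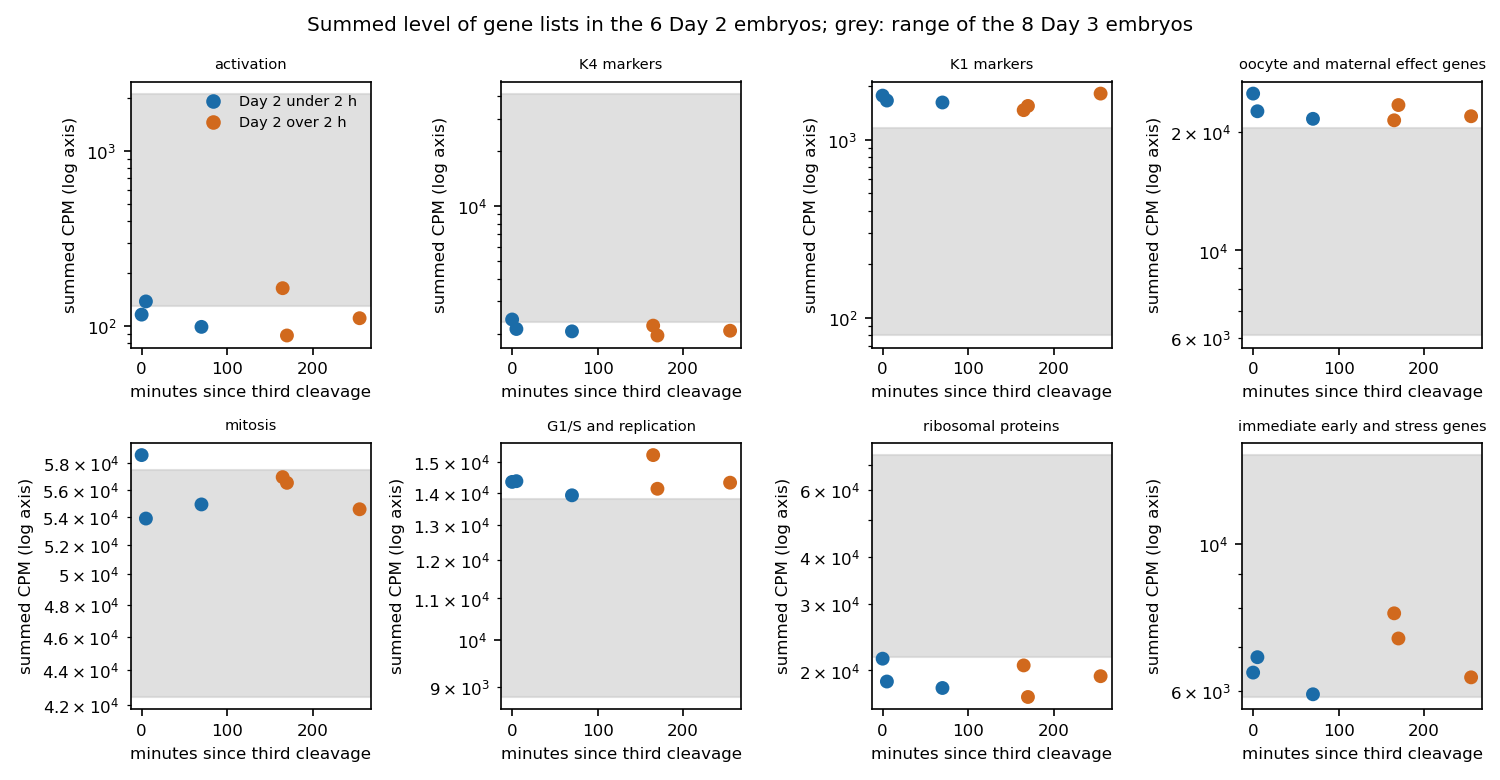
Summed CPM (log axis) of 8 gene lists in each Day 2 embryo against minutes since the third cleavage, with the range of the 8 Day 3 embryos in grey. Points of the sides overlap in every panel, and the activation sum runs from 88.3 to 165 CPM with both ends over 2 h.

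The marker genes of clusters K1 and K4, groups of cells that the study formed by their expression, overlapped in level between the sides. They were chosen on these same cells, so they are no independent evidence of a stage. The 88 markers of cluster K4, whose median sum is higher in Day 3 embryos, summed to 2390, 2119 and 2057 CPM at 0, 5 and 70 min and to 2212, 1953 and 2074 CPM at 165, 170 and 255 min. The highest sum belonged to the embryo collected at the division itself. On Day 3 the median was 15628 CPM and the range 2326 to 41385 CPM, so the lowest Day 3 embryo lay below Day2-E6. Of 55 members tested, 0 were called and 0 had an unadjusted p under 0.05, the median log2 fold change was -0.06, and 28 had an interval within 1 log2 unit of 0. In 8 of the 55 members the embryos over 2 h all lay below the others and in 0 above, where 4.4% and 3.22% of all genes tested did so. AMIGO2, a cell adhesion molecule, was one of these, at 36.5, 28.2 and 27.2 CPM under 2 h and 12.8, 24.4 and 15.8 CPM over 2 h (log2 fold change -0.71, standard error 0.39). CDK1, the kinase that drives entry into mitosis, lay between 82.2 and 125 CPM (log2 fold change 0.01, standard error 0.23).

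The 12 markers of cluster K1, which are higher on Day 2 than on Day 3, were all tested. They summed to 1764, 1655 and 1614 CPM under 2 h and to 1462, 1544 and 1810 CPM over 2 h, above the highest Day 3 value of 1156 CPM in every Day 2 embryo. Of the 12, 0 were called, and 2 were lower over 2 h at an unadjusted p under 0.05, against 1.71% of all genes tested. XRCC2, a DNA repair gene, was one, at 82.0 CPM in Day2-E6 and 25.6 and 14.13 CPM at 5 and 70 min, against 14.96, 15.22 and 11.9 CPM over 2 h. The sides overlapped, and the high value was that of Day2-E6. F3, the tissue factor of blood coagulation, was the other, at 408, 447 and 393 CPM under 2 h and 308, 300 and 388 CPM over 2 h (log2 fold change -0.31, standard error 0.17). Its embryos did not overlap.

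No maternal transcript and no gene of the machinery that removes them passed the test. The list of oocyte and maternal effect genes, 28 of 52 of which were in the table, summed to 25054, 22592 and 21612 CPM under 2 h and to 21425, 23428 and 21942 CPM over 2 h. Of 26 tested, 0 had an unadjusted p under 0.05 in either direction, the list median was -0.01 on the log2 scale, and 24 had an interval within 1 log2 unit of 0. OOSP1, a secreted oocyte protein, varied within both sides, at 4242, 3244 and 2231 CPM under 2 h and 2930, 3886 and 2942 CPM over 2 h. BCAR4, an oocyte-expressed transcript, was at 1996, 1880 and 1553 CPM and at 1274, 1553 and 1731 CPM. The list of maternal RNA clearance (deadenylases, decapping and decay factors) had 34 genes tested, with 0 past the unadjusted threshold, a median of -0.02 and 32 intervals within 1 log2 unit. Its deadenylase subunits CNOT6L (765 to 856 CPM) and CNOT7 (658 to 794 CPM) varied by less than 1.5-fold over the 6 embryos.

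Cell cycle genes overlapped in summed level between the sides. The mitosis list summed to 58640, 53870 and 54896 CPM at 0, 5 and 70 min and to 56937, 56505 and 54543 CPM at 165, 170 and 255 min. Of 51 tested, 0 were called, 1 was higher at an unadjusted p under 0.05 and 0 were lower, with a median log2 fold change of 0.04. AURKA, a kinase of spindle assembly, was at 21839, 19220 and 20934 CPM under 2 h and 20530, 19811 and 20236 CPM over 2 h (log2 fold change -0.02, 95% interval -0.34 to 0.29). PRC1, which bundles microtubules of the central spindle, lay between 4274 and 4726 CPM. SPC25, a kinetochore subunit, was the gene past the unadjusted threshold, at 437, 410 and 561 CPM under 2 h and 643, 623 and 529 CPM over 2 h, and its embryos overlapped.

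The list of G1/S and DNA replication genes summed to 13916 to 14371 CPM under 2 h and 14124 to 15251 CPM over 2 h. Of 54 tested, 0 were called, 1 was higher and 0 were lower at the unadjusted threshold, with a median log2 fold change of 0.05. The 1 gene was RPA3, the small subunit of the single-strand DNA binding complex RPA, at 59.2, 57.6 and 64.1 CPM under 2 h and 83.4, 82.2 and 117 CPM over 2 h. DNA ligase LIG1 (1804 to 2221 CPM) and UHRF1 (1574 to 2099 CPM), which guides maintenance methylation, had log2 fold changes of 0.08 and 0.12 (standard error 0.15 each). Of 17 genes tested with a histone symbol, 0 passed the unadjusted threshold, while LOC530773, a histone H4 gene outside that list described at the end, had an unadjusted p of 0.0163 by edgeR's test. HIST3H2A was highest in Day2-E1, at 36.3 CPM against 6.52 to 15.36 CPM in the other embryos.

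None of the genes that make and translate RNA passed the adjusted threshold by edgeR's test. RNA polymerase II and basal transcription genes had 48 members tested, with 0 called, 1 higher and 1 lower at the unadjusted threshold and a median log2 fold change of 0.02. CCNT2, a cyclin of the elongation factor P-TEFb, was at 41.01, 56.3 and 49.99 CPM under 2 h and 85.5, 77.6 and 56.7 CPM over 2 h. SUPT4H1, an elongation factor subunit, was at 79.7, 63.99 and 42.4 CPM and at 38.5, 18.3 and 51.5 CPM, far below its Day 3 range of 528 to 3310 CPM. Translation initiation had 35 members tested with 0 past the unadjusted threshold and a median of 0.02. Ribosomal proteins had 75 tested, 1 higher and 1 lower, and a median of 0.00479. They summed to 17979 to 21492 CPM under 2 h and 17020 to 20630 CPM over 2 h, below the lowest Day 3 embryo at 21727 CPM. RPL15 was the higher one, at 130, 123 and 151 CPM and at 184, 189 and 182 CPM, and RPL26L1 the lower. Oxidative phosphorylation had 61 tested, 2 higher, against 1.34% of all genes, and 0 lower. The 2 were the complex I subunits NDUFS4 and NDUFB4. Zinc finger genes had 100 tested, 0 higher and 4 lower, a share of 4 in 100 against 1.71% of all genes, with a median log2 fold change of -0.03. ZNF296 was at 34.2, 24.3 and 23.9 CPM under 2 h and 8.55, 10.66 and 18.5 CPM over 2 h, and its Day 3 range was 119 to 491 CPM.

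**Figure D4:**
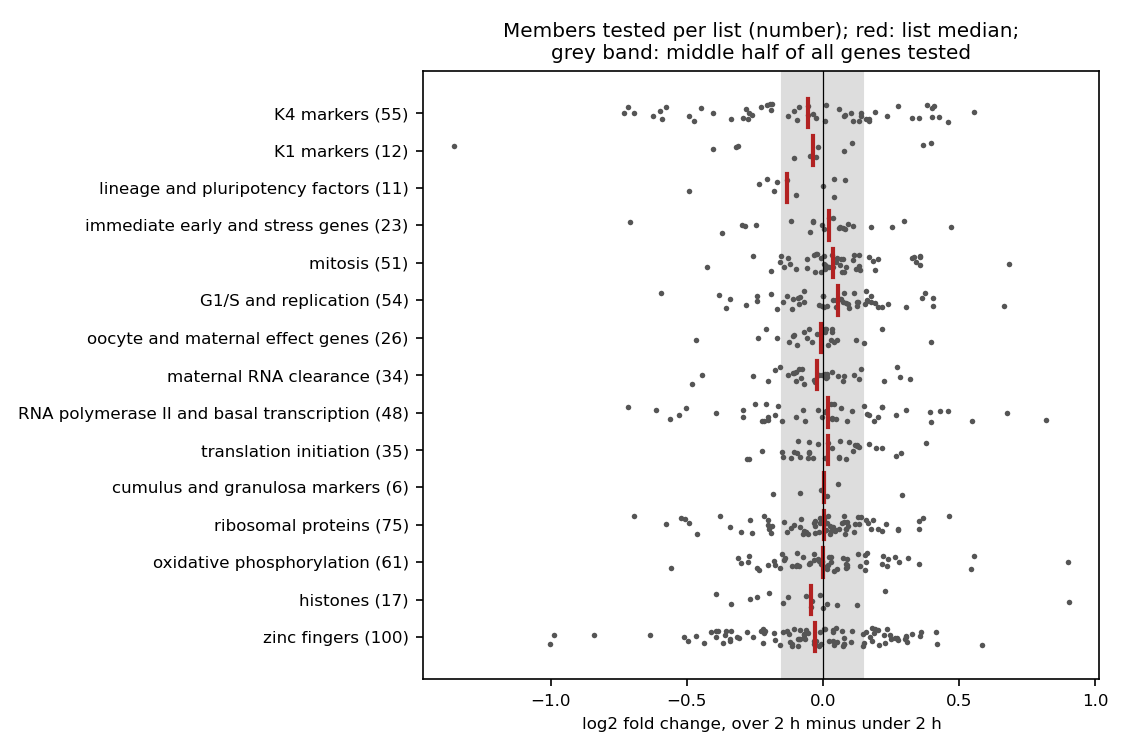
Log2 fold change (over 2 h minus under 2 h) of each tested member of the lists with 5 or more members tested, with the list median in red and the range between the quartiles of all 5907 genes as a grey band. Every list median lies inside the band, which runs from -0.15 to 0.15. The band describes single genes, and a median over many genes varies less, so this does not test the lists.

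Of the lineage and stress genes, 0 were called. Of 11 lineage and pluripotency factors tested, 0 passed the unadjusted threshold, with a median log2 fold change of -0.13. POU5F1, the pluripotency factor OCT4, lay at 45.6, 47.4 and 44.6 CPM under 2 h and 27.8, 16.74 and 50.1 CPM over 2 h (log2 fold change -0.49, 95% interval -1.19 to 0.21). KLF4 was at 95.7, 99.8 and 97.8 CPM and at 89.8, 68.5 and 89.7 CPM, against 207 to 2340 CPM on Day 3. SALL4 ranged from 609 to 790 CPM, FOSL1 from 44.1 to 67.4 CPM and CDX2, the trophectoderm factor, from 4.56 to 17.9 CPM. NANOG had 9 UMI and MYC 1 UMI in the 6 embryos, too few for a test. Of 23 immediate early and stress genes tested, 1 was higher and 0 lower at the unadjusted threshold, and their sum was 5934 to 6749 CPM under 2 h and 6293 to 7858 CPM over 2 h. The 1 gene was the chaperone HSPA8, at 447, 408 and 308 CPM under 2 h and at 710, 575 and 313 CPM over 2 h, so the embryo at 255 min lay with those under 2 h. The cumulus and granulosa list had 6 members tested (median log2 fold change 0.00379), the stromal, blood and immune list 1 (VWF) and the sperm list 1 (ODF2), with 0 past the unadjusted threshold. In all 18 lists the summed levels of the sides overlapped.

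The 20 genes with the smallest p among those whose embryos did not overlap are given as values, since each missed the adjusted threshold by edgeR's test (adjusted p = 0.9998). Among the 10 higher over 2 h, HHATL, a relative of the hedgehog acyltransferase, was at 4.56, 6.399 and 6.52 CPM at 0, 5 and 70 min and at 19.2, 16.74 and 21.1 CPM at 165, 170 and 255 min. Its log2 fold change was 1.64 (standard error 0.53), but it rested on 49 UMI in all. OCLN, which encodes occludin, was at 428, 393 and 496 CPM under 2 h and at 618, 670 and 525 CPM over 2 h (log2 fold change 0.47, standard error 0.16). MPDZ, a protein with several PDZ domains, was at 18.2, 21.8 and 18.5 CPM and at 55.6, 31.97 and 36.9 CPM (log2 fold change 1.06, standard error 0.36).

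Further genes of the 10 were NDUFS4 (log2 fold change 0.90), the RNA-binding protein FMR1 (0.97), the ubiquitin ligase TRIM9 (1.19), RPA3 (0.66), the SUMO protease SENP2 (0.59), the lipase ABHD16A (1.29) and the phosphatase PPM1D (0.73), which acts in the p53 response. SENP2 was at 72.9, 85.7 and 109 CPM under 2 h and 137, 134 and 135 CPM over 2 h. PPM1D was at 34.2, 39.7 and 48.9 CPM and at 64.1, 67.0 and 73.9 CPM.

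Among the 10 lower over 2 h, C15H11orf31 was at 171, 164 and 139 CPM under 2 h and at 113, 91.3 and 85.8 CPM over 2 h (log2 fold change -0.70, standard error 0.22). ANXA5, a phospholipid-binding annexin, was tight within the sides, at 93.4, 98.5 and 92.4 CPM and at 51.3, 56.3 and 60.7 CPM (log2 fold change -0.73, standard error 0.26). TWIST1, a transcription factor of mesenchyme, was at 20.5, 30.7 and 28.3 CPM and at 12.8, 6.09 and 11.9 CPM. Thioredoxin TXN (log2 fold change -1.29), the selenoprotein SEPN1 (-1.47), PLEKHG3 (-0.99), the kinase anchor AKAP10 (-0.64), SH3BGRL2 (-0.63), the HMG-box protein BBX (-0.73) and the signalling inhibitor SPRY2 (-0.92) made up the rest. AKAP10 was at 321, 244 and 177 CPM under 2 h and 165, 134 and 168 CPM over 2 h, so that Day2-E2 lay near the embryos over 2 h.

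**Figure D5:**
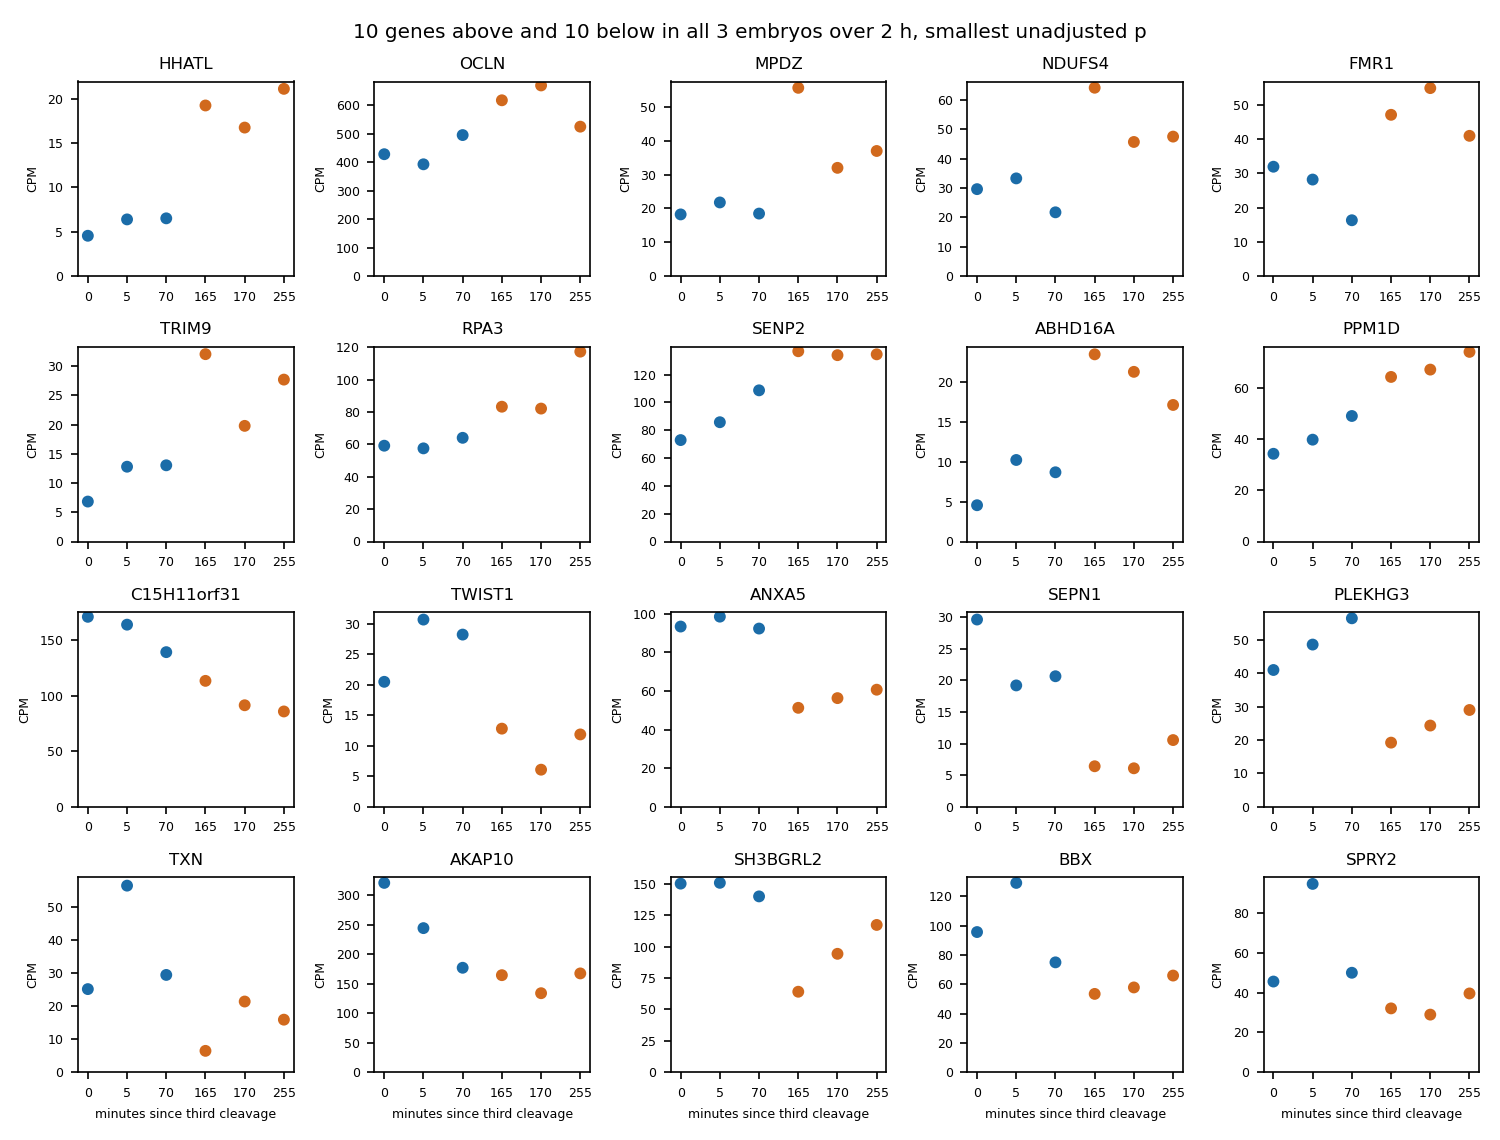
CPM of the 20 genes in each Day 2 embryo, in order of minutes since the third cleavage (blue under 2 h, orange over 2 h). The genes were chosen because the sides do not overlap, and 0 of them passed the adjusted threshold.

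One gene differed between the plates, a comparison added after the data were seen. Between plate 2 (Day2-E5 and Day2-E6, at 5 and 0 min) and plate 3 (the other 4), 1 of 6160 genes (0.0162%) had an adjusted p under 0.05 by edgeR's test. It was AMDHD1, an enzyme of histidine breakdown, at 125 CPM in Day2-E6 and 212 CPM in Day2-E5 against 64.1, 59.8, 60.9 and 71.2 CPM in Day2-E2, Day2-E1, Day2-E4 and Day2-E3 (log2 fold change 1.42, standard error 0.24, adjusted p = 0.00669 by edgeR). On Day 3 it ran from 33.5 to 78.6 CPM. Within plate 3 its log2 fold change between the sides was 0.03, and whether its level goes with the plate or with the minutes after the division cannot be told apart. Leaving out Day2-E2 removed the call, leaving 0 genes. Without Day2-E5 or Day2-E6, plate 2 held 1 embryo, so no count of genes is given there.

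LOC530773, a histone H4 gene by its RefSeq gene identifier, was singled out after its values were seen because it was called when Day2-E3 was left out. It was at 489 CPM in Day2-E1 at 165 min and 359 CPM in Day2-E4 at 170 min, against 132, 188 and 192 CPM under 2 h and 103 CPM in Day2-E3 at 255 min. The sides overlapped, and its log2 fold change was 0.86 (standard error 0.33) with all 6 embryos. It was 1.31 without Day2-E3 (adjusted p = 0.013 by edgeR) and 0.434 without Day2-E1 (adjusted p = 0.9994 by edgeR), the highest and lowest values with 1 embryo left out. Histone H4 genes are near-identical in their coding sequence, so counts of 1 copy are uncertain.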

How the data were processed

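The authors mapped the SCRB-Seq reads with STAR (version 2.5.2b per the submitters' processing notes) to the bovine genome and counted UMI with the Drop-Seq pipeline. Their deposited UMI counts per gene and cell, raw and whole, were used. Their normalised table was not used. Cells with at least 2000 UMI on genes were kept and summed per embryo, so deep cells weigh more. Genes were filtered with filterByExpr, scaled by TMM and tested with edgeR 4.0.16 (quasi-likelihood, side as the only term), checked on simulated data. DESeq2 1.42.0 was an alternative. Embryo values were compared by two-sided exact permutation tests (scipy 1.17.1). Gene lists were described by counts and medians, with no test. Named genes were those past the adjusted threshold between the sides or by hours, the 10 higher and 10 lower without overlap with the smallest p, up to 3 with the smallest p and 2 with the highest level per list, and a fixed set (POU5F1, CDX2, NANOG, MYC, KLF4, SALL4, FOSL1 and activation genes with 10 or more UMI). AMDHD1 and LOC530773 were added after their values were seen. Members and lists were chosen with earlier results of these data known. Depth limits precision as stated; a count carries counting error besides the spread between embryos.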

Additional observations from a re-analysis of the deposited data

How the results depend on the processing

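No paired analysis was possible because the sides share no embryo numbers. A plate term and the fit within plate 3 both set Day2-E2 alone against the side over 2 h, so only effect sizes are given for them. The count of 0 genes between the sides held with other scaling, DESeq2, all 14 embryos, a collection time term, by hours and with deeper or thinned cells. It also held without Day2-E1, Day2-E2, Day2-E4, Day2-E5 or Day2-E6. It became 2 without a filter on low counts (AMDHD1 and LOC530773) and ranged from 0 to 1 with 1 embryo left out, the 1 being LOC530773 without Day2-E3. The 180 genes at the unadjusted threshold became 355 without a filter, 80 with DESeq2, 6 with all 14 embryos and 58 after thinning, where 1723 genes were tested, and ranged from 155 to 336 with 1 embryo left out (336 without Day2-E3). Between plates the count became 2 without scaling and 6 without a filter, and ranged from 0 to 5 with 1 embryo left out. The causes were not tested.

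List medians moved by more than the spread between embryos as follows. With plate as a term they were 0.581 (activation, 1 gene), 0.055 (K4 markers), 0.105 (mitosis), 0.082 (oocyte and maternal effect), 0.145 (maternal RNA clearance), 0.103 (RNA polymerase II) and 0.107 (oxidative phosphorylation), and within plate 3 the last 6 were 0.056, 0.107, 0.084, 0.143, 0.104 and 0.122. With all 14 embryos activation was -0.354, and with collection time oxidative phosphorylation was 0.094. After thinning, K1 markers were -0.187, stress genes 0.241, mitosis -0.034, replication 0.125 and cumulus markers -0.196. Without a filter, the stromal list was -1.078 and the sperm list -1.049. With 1 embryo left out, medians ran from -0.044 to 0.025 (RNA polymerase II), -0.062 to 0.066 (clearance), 0.017 to 0.101 (mitosis), -0.029 to 0.091 (oxidative phosphorylation) and -0.036 to 0.031 (translation initiation). With the mean over cells, the difference in summed level was 43.27 CPM for sperm markers and -643.09 CPM for zinc fingers.

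With 1 embryo left out, the difference of the sides (over minus under 2 h) in UMI per cell ran from -11670 to 18420, in UMI per ERCC UMI from -1.698 to 2.489 and in genes per thinned cell from -54.56 to 14.95. With means over cells the ERCC ratio differed by -4.458. Log2 fold changes changed sign for AKAP10 after thinning (0.047), DDX3Y by hours (-0.072) and with 1 embryo left out (from -0.166 to 0.313, below 0 without Day2-E1 or Day2-E2), AMDHD1 with a plate term (0.033) and within plate 3 (0.033), and CDX2, which stood at 0, under DESeq2 size factors (0.002), DESeq2 (0.058), hours (0.114) and with 1 embryo left out (from -0.266 to 0.203). Values for genes with a UMI at equal depth and cell similarity do not change with the 10000 UMI minimum, which they already use.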
